A study of Mus musculus with 8 samples.

Results

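Transcripts of 9 circadian output factors were measured in gastrocnemius muscle from aged mice with and without a skeletal muscle deletion of *Nox4*. The 9 genes were taken from the table of counts by symbol, each symbol standing in 1 row, and all 9 were among the 12725 of 32390 rows with enough counts to be tested. They are the D-box activators *Dbp*, *Tef* and *Hlf*, the D-box repressor *Nfil3*, the REV-ERB receptors *Nr1d1* and *Nr1d2*, the receptor *Rora*, and the DEC repressors *Bhlhe40* and *Bhlhe41*. The control group held 4 Nox4 fl/fl mice, and the NOX4-deficient group held 4 MckCre:Nox4 fl/fl mice, labelled KO in the plots. All 8 were 21 months old per the labels, male as the study describes them, fed the same chow, and sequenced in batch 1. Both groups carried the floxed *Nox4* alleles, whereas only the NOX4-deficient mice carried Cre, driven by the muscle creatine kinase promoter and active mostly in skeletal muscle with some activity in heart, so that effects of Cre itself and of the deletion cannot be told apart. The clock hour at which each muscle was taken is not given in the sources used here, and its part in the values below was not tested.

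The circadian clock of a muscle fiber is a feedback loop in which CLOCK and BMAL1 activate E-box genes, among them the PER and CRY proteins that inhibit them. The factors described here pass that rhythm on. The PAR bZIP proteins DBP, TEF and HLF activate genes through D-box elements, and NFIL3 (also called E4BP4) represses through the same elements, with its peak at the opposite time of day to DBP. ROR receptors activate and REV-ERB receptors repress through ROR elements, which lie in *Arntl*, the gene for BMAL1, and in *Nfil3*, and DEC1 and DEC2 bind E-boxes and repress the genes that CLOCK and BMAL1 activate.

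Promoter sequences were matched by symbol to RefSeq promoters of GRCm38.p6, and 8 of the 9 genes matched, in 9 windows since *Tef* had 2 start sites. *Bhlhe40* had no entry. In the 250 bases before each start, 3 motifs were searched on both strands, the E-box CACGTG, the D-box TTANGTAA and the core of the ROR element AGGTCA, which do not contain each other. The E-box stood in 3 of 9 windows, both of *Tef* and that of *Bhlhe41*, against 6.02% of all 32851 promoter windows. The ROR core stood in 2 of 9, those of *Nfil3* and *Nr1d2*, against 14.0%, and the D-box in 0 of 9, against 2.06%. A match describes letters only, and elements farther away or inside the genes were not searched. The windows of *Dbp*, which had the largest fold change, and of *Nfil3* and *Bhlhe41*, which changed in opposite directions, are given whole, and those of *Tef* and *Nr1d2* as the match with 20 bases on each side. Each is written 5′ to 3′ on the strand of its gene, with matches in capitals.
Dbp, chr7:45704997-45705246, plus strand: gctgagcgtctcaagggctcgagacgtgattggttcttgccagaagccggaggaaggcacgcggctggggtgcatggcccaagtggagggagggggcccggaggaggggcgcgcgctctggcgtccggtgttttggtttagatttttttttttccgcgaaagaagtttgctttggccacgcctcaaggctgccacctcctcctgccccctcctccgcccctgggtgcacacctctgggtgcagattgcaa
Nfil3, chr13:52981040-52981289, minus strand: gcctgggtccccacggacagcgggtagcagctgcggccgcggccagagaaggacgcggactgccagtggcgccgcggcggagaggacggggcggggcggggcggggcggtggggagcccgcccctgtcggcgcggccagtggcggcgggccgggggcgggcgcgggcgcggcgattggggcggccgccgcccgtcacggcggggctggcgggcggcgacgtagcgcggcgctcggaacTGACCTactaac
Bhlhe41, chr6:145865421-145865670, minus strand: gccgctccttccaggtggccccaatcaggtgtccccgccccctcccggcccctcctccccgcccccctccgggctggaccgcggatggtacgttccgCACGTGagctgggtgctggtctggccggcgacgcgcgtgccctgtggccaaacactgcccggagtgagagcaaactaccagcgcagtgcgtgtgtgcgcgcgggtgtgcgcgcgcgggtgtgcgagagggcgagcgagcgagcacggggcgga
Tef, chr15:81802526-81802571, plus strand: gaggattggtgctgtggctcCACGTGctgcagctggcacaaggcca
Tef, chr15:81811256-81811301, plus strand: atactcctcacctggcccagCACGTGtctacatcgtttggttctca
Nr1d2, chr14:18239158-18239203, minus strand: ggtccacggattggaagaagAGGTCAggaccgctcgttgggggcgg
The ROR core of *Nfil3* lay 12 bases before its start, read on the opposite strand, and the E-box of *Bhlhe41* began 153 bases before its start. The window of *Dbp* held none of the 3 motifs.

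The libraries held 16350548 to 19804661 counts on genes, and the 9 genes had between 82 and 7389 counts per library. *Nox4*, the floxed gene, was counted 85, 48, 35 and 70 times in control and 29, 43, 42 and 37 in NOX4-deficient replicates 1 to 4. The groups overlapped and the decrease was not called (log2FC -0.65 ± 0.29 SE, edgeR adjusted p = 0.207). The counts cover whole genes and do not separate the floxed exons from the rest. Levels are given as CPM, counts relative to library size after scaling by the TMM method, and differences as the log2 fold change (log2FC, with its standard error, SE) of NOX4-deficient over control from edgeR's quasi-likelihood test on all 12725 rows. A gene was called where its Benjamini-Hochberg adjusted p-value was under 0.05 and its log2 fold change over 0.5 in size.

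Of the 9 output factors, *Dbp*, *Hlf* and *Bhlhe41* were called higher and *Nfil3* was called lower in NOX4-deficient mice. Of all 12725 rows, 6.16% were called, 2.68% higher and 3.48% lower. In the same 4 genes no NOX4-deficient library overlapped a control library, which held for 16.2% of all rows, 7.2% with the NOX4-deficient libraries higher and 8.97% with them lower. The other 5 genes, *Tef*, *Nr1d1*, *Nr1d2*, *Rora* and *Bhlhe40*, were not called, and their groups overlapped. The median log2FC over the 9 genes was 0.22, against 0.01 over all rows tested.

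The same 4 genes were called by DESeq2, pydeseq2 and limma voom. DESeq2 and pydeseq2 called 4.83% and 4.88% of 20666 rows, without the filter on low counts, and limma voom 5.96% of 12725 rows. Of the 12725 rows tested by edgeR, DESeq2 called 997 and pydeseq2 995, against 784 by edgeR. Without control replicates 1 to 4 in turn, 3, 3, 4 and 4 of the 9 genes were called, against 4.89%, 4.59%, 4.62% and 3.87% of rows. Without NOX4-deficient replicates 1 to 4 in turn, the numbers were 3, 3, 3 and 4, against 4.55%, 5.43%, 4.2% and 5.5% of rows. With no filter on low counts (3.98% of 20675 rows) or a limit of 0.01 on the adjusted p (1.98% of 12725 rows), 3 were called. In each fit with 3 calls the gene lost was *Dbp*, and without NOX4-deficient replicate 4 *Bhlhe40* was called and *Dbp* was not.

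**Figure D1:**
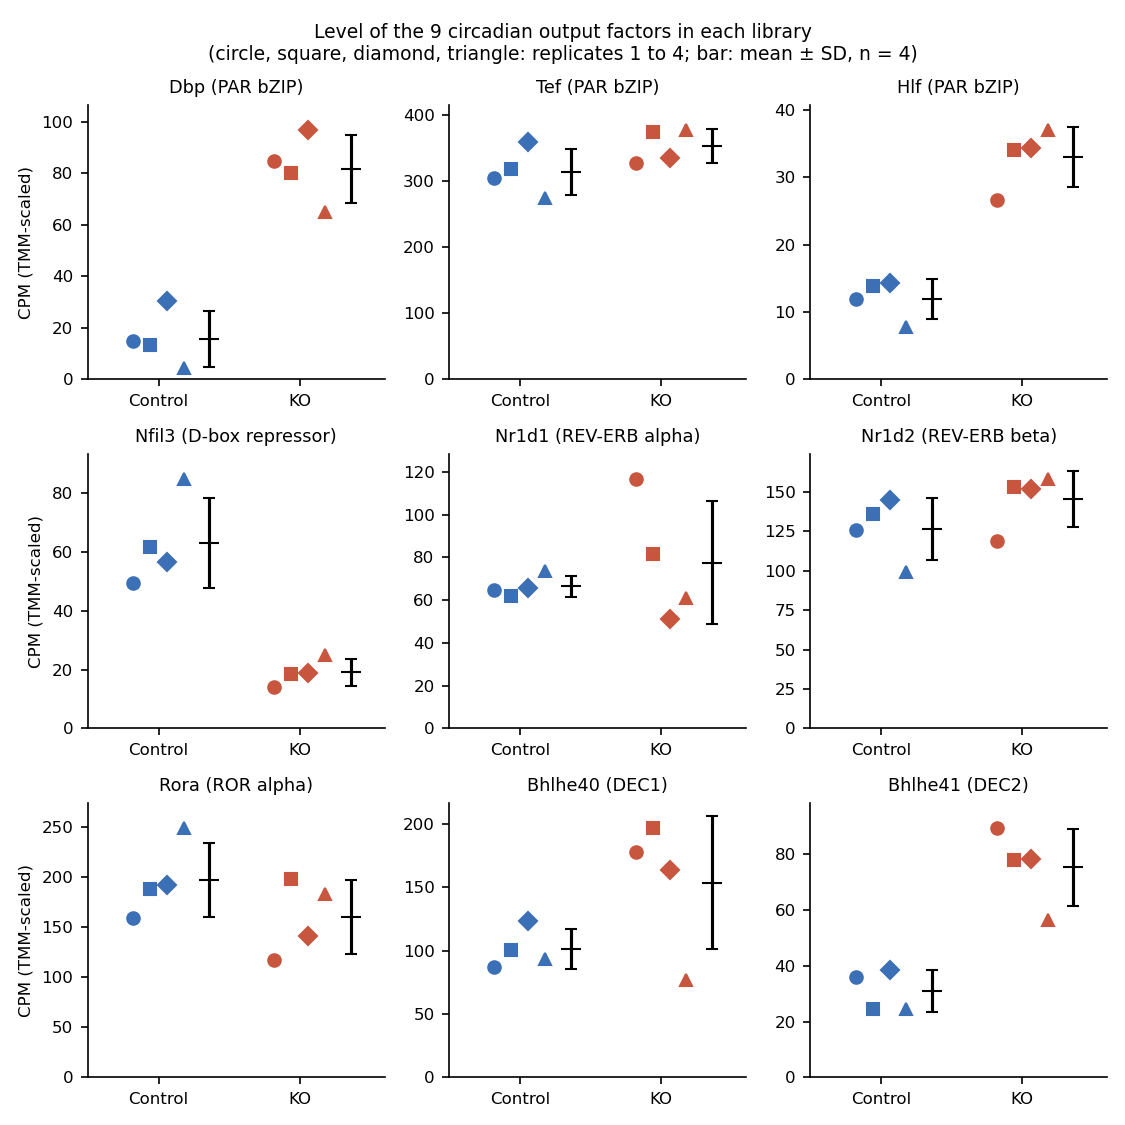
Level of each of the 9 factors in TMM-scaled CPM (vertical axis, from 0) in the 4 control (blue) and 4 NOX4-deficient (KO, red) libraries, with a symbol for each replicate number and the mean ± SD (n = 4) beside each group. The groups of *Dbp*, *Hlf*, *Nfil3* and *Bhlhe41* lie apart, and those of the other 5 genes overlap.

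*Dbp*, which encodes a D-box activator and is among the most rhythmic transcripts of many tissues, reached 14.9, 13.4, 30.6 and 4.26 CPM in the 4 controls and 84.7, 80.3, 96.7 and 65.1 CPM in NOX4-deficient replicates 1 to 4. Every NOX4-deficient library lay above the highest control library. The control mice spread widely, with a 7.17-fold gap between their highest and lowest library, against 1.48-fold among NOX4-deficient mice. Averages of 15.8 ± 10.9 CPM in the controls and 81.7 ± 13.0 CPM in NOX4-deficient mice (SD, n = 4 each) differed by 5.18-fold (log2FC 2.37 ± 0.48 SE, edgeR adjusted p = 0.0245). An exact two-sided permutation test of log2 CPM gave p = 0.0286, the smallest that 4 mice against 4 allow, as it did for each of the other 3 called factors. This call depended on the libraries, since leaving out control replicate 1 or 2 or any 1 NOX4-deficient library brought the edgeR adjusted p to between 0.0516 and 0.0752, while the log2 fold change stayed between 2.06 (without control replicate 4) and 2.93 (without control replicate 3). Exons of *Sphk2* overlap 18.0% of the exon bases of *Dbp* on the opposite strand, and the unstranded libraries do not separate them. *Sphk2* had 1828 counts in all 8 libraries, against 7107 for *Dbp*, and it went the other way (log2 fold change -0.82, edgeR adjusted p = 0.00262).

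*Hlf*, a second PAR bZIP activator, had 11.9, 13.9, 14.3 and 7.75 CPM in the controls and 26.7, 34.1, 34.4 and 37.0 CPM in NOX4-deficient replicates 1 to 4. Again the lowest NOX4-deficient library exceeded the highest control library. Averages of 11.98 ± 3.01 and 33.0 ± 4.45 CPM (SD, n = 4 each) placed it higher by 2.76-fold (log2FC 1.46 ± 0.18 SE, edgeR adjusted p = 0.000961). The call of *Hlf* did not depend on any single library (log2FC 1.30 to 1.57 without 1 of them).

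*Tef*, the third PAR bZIP activator, had 304, 317, 359 and 275 CPM in the controls and 327, 374, 335 and 376 CPM in NOX4-deficient replicates 1 to 4. Only 2 NOX4-deficient libraries lay above the highest control library. Control mice averaged 314 ± 34.8 and NOX4-deficient mice 353 ± 25.6 CPM (SD, n = 4 each), and the log2FC was 0.17 ± 0.11 SE (edgeR adjusted p = 0.376). Within each library, *Dbp* and *Hlf* were higher relative to *Tef* in all 4 NOX4-deficient mice than in any control mouse. The log2 ratio of *Dbp* to *Tef* rose by 2.48 and that of *Hlf* to *Tef* by 1.31, ratios that need no scaling between libraries.

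*Nfil3*, the repressor of the same D-box elements, had 49.5, 61.6, 56.6 and 84.7 CPM in the controls and 14.1, 18.5, 18.8 and 25.1 CPM in NOX4-deficient replicates 1 to 4. No NOX4-deficient library reached the lowest control library. Averages of 63.1 ± 15.3 and 19.1 ± 4.53 CPM (SD, n = 4 each) placed it 3.30-fold lower (log2FC -1.72 ± 0.19 SE, edgeR adjusted p = 0.000596). By p-value it stood at place 27 among the 12725 rows, ahead of *Hlf* at 34, *Bhlhe41* at 75 and *Dbp* at 575. Without any 1 library it was still called, at log2FC of -1.87 to -1.55.

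**Figure D2:**
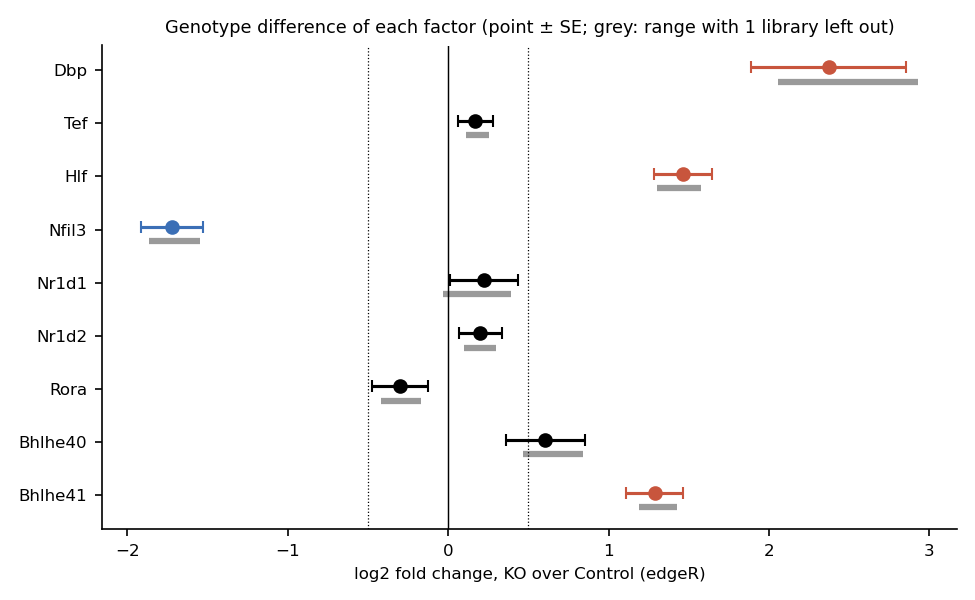
Log2 fold change of NOX4-deficient over control muscle for each factor (horizontal axis) as edgeR's estimate ± standard error, red where called higher, blue where called lower and black where not called, with the range over fits without 1 library in grey and dotted lines at ±0.5. *Dbp* has the largest estimate, 2.37, and the widest error, and *Nfil3* is the gene called lower.

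Since *Dbp* and *Hlf* rose where *Nfil3* fell, the ratio of each D-box activator to the repressor within a library was compared, as a description without a test. The log2 ratio of *Dbp* to *Nfil3* was -1.72, -2.19, -0.89 and -4.28 in control replicates 1 to 4 and 2.58, 2.11, 2.35 and 1.37 in NOX4-deficient replicates 1 to 4. *Nfil3* therefore exceeded *Dbp* in counts in every control library, and *Dbp* exceeded *Nfil3* in every NOX4-deficient library. For *Hlf* to *Nfil3* the mean log2 ratio moved from -2.40 ± 0.69 to 0.81 ± 0.17 (SD, n = 4 each), also with a change of sign in all libraries. *Tef* was above *Nfil3* in every library, at a mean log2 ratio of 2.33 ± 0.45 in control and 4.23 ± 0.27 in NOX4-deficient muscle (SD, n = 4 each). Averaged over the 3 activators, the ratio was -0.78 ± 0.85 in control and 2.38 ± 0.31 in NOX4-deficient muscle (SD, n = 4 each), a difference of 3.16 on the log2 scale or 8.92-fold. Control replicate 4 had the lowest ratio of each of the 3 activators to *Nfil3*, and without it the averaged difference was 2.75.

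**Figure D3:**
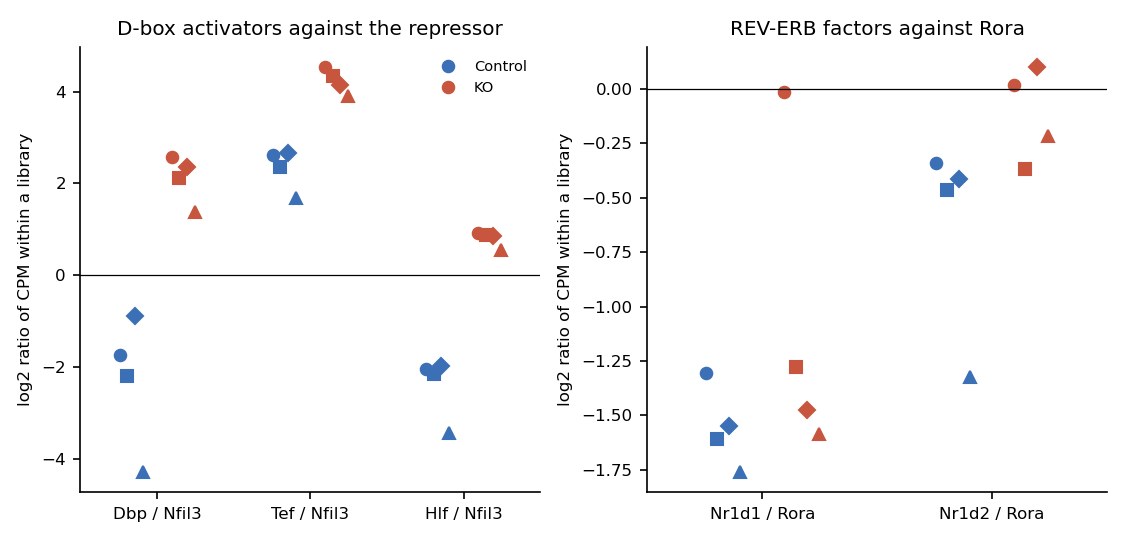
Log2 ratio of CPM within each library (vertical axes, which differ between panels) for the 3 D-box activators over *Nfil3* (left) and the 2 REV-ERB genes over *Rora* (right), in control (blue) and NOX4-deficient (red) libraries, with symbols for replicates 1 to 4 in the order circle, square, diamond and triangle. The groups lie apart in each ratio to *Nfil3* and overlap in both ratios to *Rora*.

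The factors that act through ROR elements did not show such a separation. *Nr1d1*, which encodes the repressor REV-ERB alpha, had 64.5, 61.7, 65.8 and 73.4 CPM in the controls and 116, 81.6, 51.0 and 61.0 CPM in NOX4-deficient replicates 1 to 4. The NOX4-deficient mice lay on both sides of the controls, 2 above and 2 below all of them, with a 2.28-fold gap between highest and lowest, against 1.19-fold in control mice. The log2FC was 0.22 ± 0.21 SE (edgeR adjusted p = 0.579), and without NOX4-deficient replicate 1 it was -0.029. *Nr1d1* shares 8.55% of its exon bases with *Thra*, a thyroid hormone receptor gene on the opposite strand, whose 8368 counts were of the same order as the 10476 of *Nr1d1*. *Thra* had a log2 fold change of 0.36 (edgeR adjusted p = 0.0355), which is under the size needed for a call, and part of the reads of either gene may come from the other.

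*Nr1d2*, which encodes REV-ERB beta, had 126, 136, 145 and 99.4 CPM in the controls and 119, 153, 152 and 158 CPM in NOX4-deficient replicates 1 to 4. In 3 NOX4-deficient libraries it lay above every control library, and in replicate 1 it lay within their range (log2FC 0.20 ± 0.13 SE, edgeR adjusted p = 0.396). *Rora*, the activator at the same elements, had 160, 188, 193 and 249 CPM in the controls and 118, 198, 142 and 184 CPM in NOX4-deficient replicates 1 to 4. Here 2 NOX4-deficient libraries lay below every control library, and the log2FC was -0.30 ± 0.17 SE (edgeR adjusted p = 0.325). The log2 ratio of the REV-ERB genes to *Rora*, averaged over both, was -1.10 ± 0.31 in control and -0.60 ± 0.41 in NOX4-deficient muscle (SD, n = 4 each), and the groups overlapped. The difference of 0.49 lay between those of *Nr1d1* alone, 0.47, and *Nr1d2* alone, 0.52, and it was 0.29 without NOX4-deficient replicate 1 and 0.34 without control replicate 4.

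Of the DEC repressors, *Bhlhe41*, which encodes DEC2, had 35.96, 24.4, 38.6 and 24.6 CPM in the controls and 89.2, 77.8, 78.2 and 56.3 CPM in NOX4-deficient replicates 1 to 4. Every NOX4-deficient library exceeded every control library. Averages of 30.9 ± 7.44 and 75.4 ± 13.8 CPM (SD, n = 4 each) placed it higher by 2.44-fold (log2FC 1.29 ± 0.18 SE, edgeR adjusted p = 0.00165). Fits without 1 library gave a log2FC of 1.19 to 1.43, all of them called. On the opposite strand, exons of *Gm43909*, not analysed here, overlap 19.0% of the exon bases of *Bhlhe41*. *Bhlhe40*, which encodes DEC1 and also responds to hypoxia, had 87.1, 101, 123 and 93.9 CPM in the controls and 178, 197, 164 and 77.3 CPM in NOX4-deficient replicates 1 to 4. In 3 NOX4-deficient mice it lay above every control, whereas replicate 4 lay below them all. Its log2FC of 0.60 ± 0.25 SE (edgeR adjusted p = 0.174) was not called, and without NOX4-deficient replicate 4 it was 0.84 (edgeR adjusted p = 0.00445). That library also held the least *Bhlhe41* and *Dbp* of its group.

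To compare levels between the genes, CPM were divided by the length of all annotated exons in kilobases (GENCODE M21, an annotation of GRCm38, whereas the counts were made on GRCm39). On this scale the controls ran from *Tef* at 39.9 ± 4.43 CPM per kb through *Nfil3* (31.1), *Nr1d2* (23.4), *Nr1d1* (21.6), *Bhlhe40* (21.5), *Rora* (15.1), *Dbp* (5.27) and *Bhlhe41* (4.60) to *Hlf* at 1.79 ± 0.450 CPM per kb (SD, n = 4 each). The ranges of neighbors in this order overlapped except between *Rora* and *Dbp* and between *Bhlhe41* and *Hlf*. In NOX4-deficient muscle *Tef* and *Hlf* again stood first and last, at 44.9 ± 3.25 and 4.95 ± 0.666 CPM per kb (SD, n = 4 each). *Nfil3* moved from place 2 to place 8, at 9.43 CPM per kb, and *Dbp* from place 7 to place 3, at 27.3 CPM per kb. The order there was *Tef*, *Bhlhe40* (32.7), *Dbp*, *Nr1d2* (26.9), *Nr1d1* (25.2), *Rora* (12.3), *Bhlhe41* (11.2), *Nfil3* and *Hlf*, with ranges of neighbors that overlapped except between *Nr1d1* and *Rora* and between *Nfil3* and *Hlf*.

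**Figure D4:**
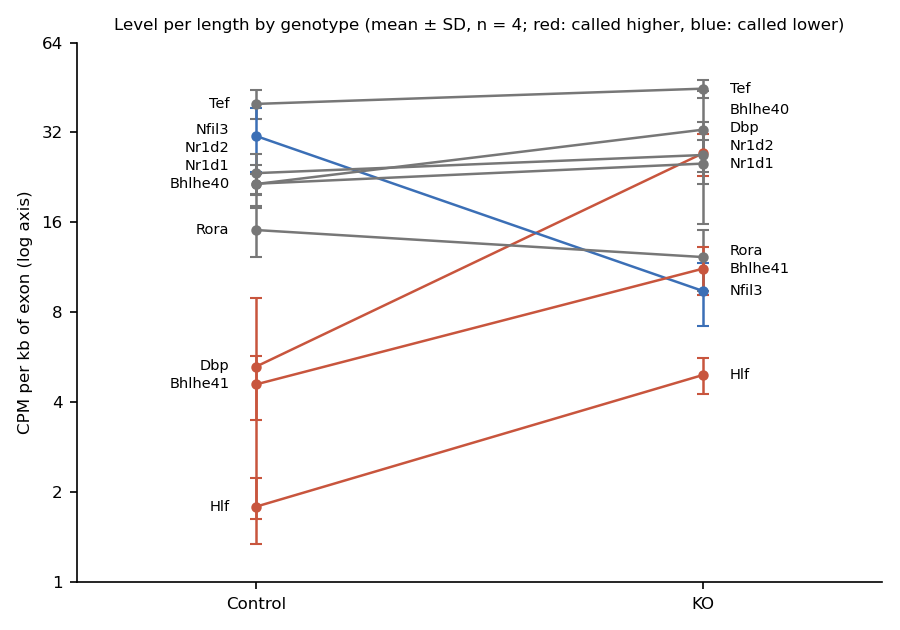
Mean level ± SD (n = 4) of each factor in CPM per kilobase of exon, on a log axis, in control and NOX4-deficient (KO) muscle, joined by a line for each gene, red where called higher, blue where called lower and grey where not called. The line of *Nfil3* runs down from 31.1 to 9.43 CPM per kb and that of *Dbp* up from 5.27 to 27.3 CPM per kb.

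Within a group, single mice stood at the same end of several of the 9 genes. Control replicate 4 held the least *Dbp*, *Tef*, *Hlf* and *Nr1d2* and the most *Nfil3*, *Nr1d1* and *Rora* of its group, whereas control replicate 3 held the most *Dbp*, *Tef*, *Hlf*, *Nr1d2*, *Bhlhe40* and *Bhlhe41*. Among NOX4-deficient mice, replicate 1 held the most *Nr1d1* and *Bhlhe41* and the least *Tef*, *Hlf*, *Nfil3*, *Nr1d2* and *Rora*. In both groups replicate 4 held the most *Nfil3* and the least *Dbp*, but the NOX4-deficient one also held the most *Tef*, *Hlf* and *Nr1d2* of its group, where control replicate 4 held the least. Without control replicate 4, the same 4 genes were called, at log2FC of 2.06 for *Dbp*, 1.30 for *Hlf*, -1.55 for *Nfil3* and 1.19 for *Bhlhe41*.

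The core loop was read from a list of 12 genes. *Per3* and *Ciart* were called higher and *Npas2* and *Arntl* lower, where 2.68% of all rows were called higher and 3.48% lower. The median log2 fold change of the list was 0.04. *Arntl*, which encodes the clock activator BMAL1, had 32.1, 28.7, 27.1 and 73.5 CPM in the controls and 15.6, 11.4, 5.36 and 9.91 CPM in NOX4-deficient replicates 1 to 4 (log2FC -1.94 ± 0.41 SE, edgeR adjusted p = 0.0243). Its highest library was control replicate 4, where *Dbp* was lowest, and its lowest was NOX4-deficient replicate 3, where *Dbp* was highest. *Npas2*, a partner of BMAL1, averaged 1.75 CPM in the controls and 0.35 CPM in NOX4-deficient mice and had a log2 fold change of -2.32 (edgeR adjusted p = 0.00713). *Per3* rose from 5.83 ± 1.31 to 20.8 ± 4.68 CPM (SD, n = 4 each), a log2 fold change of 1.84 (edgeR adjusted p = 0.000285), and *Ciart*, which encodes a repressor of CLOCK and BMAL1, had a log2 fold change of 1.59 (edgeR adjusted p = 0.0334). *Arntl* was called in 14 of 17 alternative fits. Its call was lost without NOX4-deficient replicate 2 or 4 (edgeR adjusted p = 0.0823 and 0.0702) and with no filter on low counts (edgeR adjusted p = 0.0903). *Ciart* was called in 10 of 17 alternative fits. It was not called without control replicate 1, 2 or 4, without NOX4-deficient replicate 1, 2 or 3, or with no filter on low counts. The log2FC of *Ciart* lay between 1.41 without control replicate 4 and 2.22 without control replicate 3. *Clock* (-0.37), *Per1* (0.15), *Per2* (0.49), *Cry1* (-0.07), *Cry2* (-0.08), *Arntl2* (0.82), *Timeless* (0.67) and *Noct* (-0.25) were not called, their groups overlapped, and their edgeR adjusted p-values ran from 0.131 to 0.802. Of these, *Arntl2*, a paralogue of *Arntl*, averaged only 0.50 CPM in the controls and 0.90 CPM in NOX4-deficient mice.

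**Figure D5:**
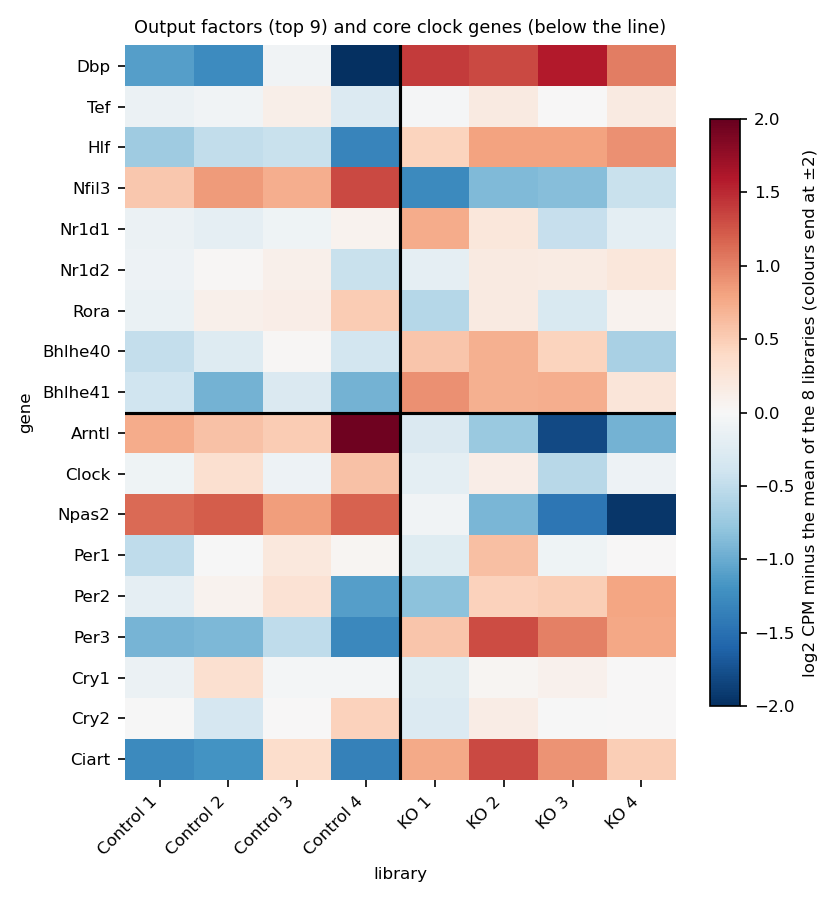
Log2 CPM minus the mean of the 8 libraries (color) for the 9 output factors (above the line) and 9 core clock genes (below it) in each library, with control and NOX4-deficient (KO) libraries apart. *Nfil3*, *Arntl* and *Npas2* lie above their mean in the control libraries, and *Dbp*, *Hlf*, *Bhlhe41* and *Per3* below it.

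Genes that the output factors or the loop are known to regulate were read from lists whose members partly coincide. Of 9 E-box targets outside the 9 factors, 3 were called higher and 1 lower, with *Per3* and *Ciart* among those higher (median log2 fold change 0.39). Of 6 tested D-box targets, *Per3* was called higher and *Por*, the cytochrome P450 reductase gene, lower (-0.53, edgeR adjusted p = 0.0117), and the median was 0.10. In the ROR element list every one of the 11 tested genes had a log2FC below 0, and 5 were called lower. *Ulk1*, an autophagy kinase gene, went down from 159 ± 24.9 to 87.8 ± 4.64 CPM (SD, n = 4 each) and *Bnip3*, a mitophagy receptor gene, from 323 ± 81.2 to 177 ± 14.4 CPM (edgeR adjusted p = 0.00127 and 0.00619). In a list of rhythmic muscle genes 2 of 12 were called higher and 2 lower, with *Pdp1*, *Tbc1d1* and *Pdk4* at log2 fold changes of 1.32, -1.04 and -1.54. Over all lists, with each gene counted once, 4 of 54 tested genes were called higher and 10 lower, against 2.68% and 3.48% of all rows. That total of 14 was 9 without control replicate 4 and 8 without NOX4-deficient replicate 2.

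For each called factor, the genes most like it were found by the root mean square difference of log2 CPM, centred on each gene's mean, over the 8 libraries, among 12724 other rows. *Slc35f3*, *Gm49794* and *Rtkn2* lay nearest to *Dbp*, at differences from 0.45 to 0.61, with control means of 0.44, 2.02 and 0.38 CPM. *Sh3rf2*, *Angptl2* and *Tiam1* lay nearest to *Hlf* (0.16 to 0.17), *Tacc2*, *Lpin1* and *Clip1* to *Nfil3* (0.20 to 0.24), and *Gm19299*, *4930544D05Rik* and *E2f2* to *Bhlhe41* (0.17 to 0.21). Of the genes of the clock, *Ciart* was at place 8 and *Per3* at place 10 of likeness to *Dbp*, and *Per3* at place 15 for *Hlf*. When the sign of *Nfil3* was turned, *Bhlhe41* was at place 8 and *Hlf* at place 34 of the rows most like it. All these values hold the genotype difference that the genes share, and they are given as a description.

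Markers of other cells were read from the same libraries, since fewer cells of a type and less RNA per cell cannot be told apart in whole muscle. The 10 myofiber markers, with *Ckm*, *Acta1* and *Myh4* at control means of 10276, 30107 and 48430 CPM, had 0 genes called by edgeR, 0 at an unadjusted p under 0.05 and 0 called by DESeq2 or limma voom. Their log2FC ran from -0.39 for *Myh1* to 1.14 for *Myh7* (edgeR adjusted p = 0.453 and 0.401), with a median of 0.11. Of 3 tested blood markers, *Hba-a1* and *Hbb-bs* were called higher (log2FC 1.24 and 1.00, genes of families whose reads may be shared between copies), and the summed level of the list was 47.6 to 52.7 CPM in the controls and 72.3 to 159 CPM in NOX4-deficient libraries. Among 6 endothelial markers, *Vwf* was called higher (0.74), at summed levels of 209 to 251 CPM and 236 to 251 CPM. Over all rows, 2.68% were called higher. No gene was called by edgeR among 6 leukocyte (26.2 to 74.5 against 13.3 to 50.4 CPM), 6 adipocyte (162 to 297 against 160 to 209 CPM), 6 fibroblast or tendon (339 to 577 against 305 to 508 CPM), 4 Schwann cell (44.9 to 66.6 against 53.9 to 132 CPM) and 4 satellite cell markers (20.4 to 26.0 against 21.9 to 26.8 CPM). In these lists 2, 0, 2, 2 and 2 genes had an unadjusted edgeR p under 0.05, which held for 2951 of all 12725 rows. DESeq2 called 1 Schwann cell marker while limma voom called none. All 6 leukocyte markers had a log2FC below 0 (median -0.45), and all 4 Schwann cell markers had one above 0 (median 0.45). In 1 leukocyte marker the groups did not overlap, which held for 16.2% of all rows. All tested markers had a mean above 0 in both groups, and *Hbb-bt* was not among the rows tested. The part of blood in the values of the 9 factors was not tested.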

How the data were processed

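Poly(A) RNA of 8 gastrocnemius muscles, 1 per mouse, was sequenced as unstranded paired-end libraries. Unnormalized gene-level counts were deposited by the authors, who made them with the nf-core RNA-seq pipeline, and the submitters' processing notes name STAR and GRCm39. Which gene annotation and counter were used is not given in the sources used here. Of 32390 rows, 412 repeat an earlier name and a name stands for its row with most counts. All 8 columns matched a sample by title.

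The main test was the quasi-likelihood test of edgeR 4.0.16 under R 4.3.3 (TMM, filterByExpr, estimateDisp, robust glmQLFit, glmQLFTest, Benjamini-Hochberg adjustment over 12725 rows), fitted to genotype in all 8 libraries. Log2 CPM used a prior count of 2. The fit was tested on simulated data. Alternatives were DESeq2 1.42.0, pydeseq2 0.5.4 (the tool of the study's methods), limma 3.58.1 voom, other scalings, filters and thresholds, the replicate number as a block and each library left out. Promoters came from RefSeq (GRCm38.p6) and exon lengths and overlaps from GENCODE M21. No protein sequences were used here.

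The 9 genes and all lists were chosen with earlier results of these data known. Genes named are the 9, *Nox4*, the core loop, up to 3 called genes per list by p-value (1 such gene is not reported here), and the 3 rows most like each called factor. *Ppargc1a* was named after its value was seen, *Thra* and *Sphk2* were named for their overlap, and the blood and endothelial markers that were called, after their values were seen. *Myh1* and *Myh7* were named for the lowest and highest log2FC of the myofiber markers. Replicates were separate samples per the labels, and every pair within a group differed by more than counting noise (chi-square over degrees of freedom of 13.5 to 56.4). P-values measure the spread between these mice.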

Additional observations from a re-analysis of the deposited data

Results flagged for a closer look

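In 60 groups of 4 libraries (the 9 factors, *Nox4*, clock genes, ratios and library totals), the gap of the highest or lowest library to its nearest neighbor, as a share of the range of the group, was compared with Dixon's 95% critical value of 0.829. A library stood apart in 7 groups, where chance gives about 3 (1 in 20). Control replicate 4 was apart in *Arntl* (share 0.892, 73.5 CPM against 27.1 to 32.1 CPM in the other 3), in the log2 ratio of *Hlf* to *Nfil3* (0.892, -3.43 against -2.13 to -1.98) and in that of *Nr1d2* to *Rora* (0.876, -1.32 against -0.46 to -0.34). NOX4-deficient replicate 1 was apart in *Nr1d2* (0.837, 119 CPM against 152 to 158 CPM) and in *Nox4* (0.918, 1.74 CPM against 2.17 to 2.21 CPM). Control replicate 3 was apart in *Ciart* (0.951, 9.69 CPM against 2.91 to 3.24 CPM), and NOX4-deficient replicate 4 in the ratio of *Hlf* to *Nfil3* (0.860, 0.56 against 0.87 to 0.92).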

How the results depend on the processing

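*Hlf*, *Bhlhe41* and *Nfil3* were called in all 17 alternative fits, and *Dbp* in 10 of 17, with an edgeR adjusted p of up to 0.0774 (no filter on low counts). The number of the 9 factors called was 4 in most settings and ranged from 3 to 4 without single libraries. Of all rows, 784 were called, 499 to 712 without single libraries (fewest without control replicate 4), and 252 at an adjusted p under 0.01. Related genes called numbered 14, 8 to 12 without single libraries, 9 without a filter and 7 at an adjusted p under 0.01. DESeq2 called 999 and pydeseq2 1009 rows, with the same 4 factors. The averaged D-box ratio difference of 3.16 was 4.38 for *Dbp* alone and 1.89 for *Tef* alone. The sign turned for *Nr1d1* (range without single libraries -0.029 to 0.39, below 0 without NOX4-deficient replicate 1), *Per1* (-0.062 to 0.26, below 0 without NOX4-deficient replicate 2) and *Cry2* (-0.19 to 0.083, above 0 without control replicate 4 and, at 0.0046, without NOX4-deficient replicate 1). The cause was not tested. The replicate number as a block gave 933 called rows and the same 4 factors, but the correlations of deviations of same-numbered samples were 0.22, 0.15, 0.04 and 0.04, so the numbers were not taken to pair the mice, and 1 of 4 controls correlated best with its own number.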

Other observations

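Co-regulators and turnover factors of the clock, such as corepressors, casein kinases and ubiquitin ligases, held 17 tested genes (median log2FC -0.17). Of these, edgeR called 0, against 6.16% of all rows, and DESeq2 and limma voom called 1 each. In 6 the unadjusted edgeR p was under 0.05, which held for 2951 of all 12725 rows. *Ppargc1a*, the coactivator PGC1 alpha, chosen after its value was seen, had 127, 161, 54.2 and 55.9 CPM in the controls and 27.7, 33.0, 29.5 and 61.4 CPM in NOX4-deficient replicates 1 to 4 (log2FC -1.39 ± 0.42 SE, edgeR adjusted p = 0.0855). Its groups overlapped through NOX4-deficient replicate 4.

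Among paralogues of the 9 factors, the bZIP genes *Cebpd* and *Cebpb*, which encode C/EBP factors induced by stress and glucocorticoids, were called lower. *Cebpd* had 23.4, 32.7, 63.6 and 51.8 CPM in the controls and 10.2, 12.9, 17.2 and 5.92 CPM in NOX4-deficient replicates 1 to 4 (log2FC -1.89 ± 0.37 SE, edgeR adjusted p = 0.0184). *Cebpb* had a log2 fold change of -1.13 (edgeR adjusted p = 0.0305), with groups that did not overlap, and *Cebpa* and *Cebpg* were not called.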
